A study of Mus musculus with 2 samples.

Results

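The cytochrome P450 enzymes of families 1 to 4 were followed through single liver cells of mice. Members were all genes whose symbol is Cyp, a family number from 1 to 4, a subfamily letter and a member number, with pseudogenes left out. This gave 81 of the 32285 mouse genes counted, in 21 subfamilies. All but Cyp4x1os, an antisense gene that the naming rule also takes in, are annotated as protein coding. No UMI (unique molecular identifier, the tag of a captured transcript) of 10 members was counted in the cells kept from either library.

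P450 enzymes are haem proteins of the endoplasmic reticulum that oxidise drugs, foreign chemicals, steroids and fatty acids, with electrons passed on by P450 reductase. Hepatocytes make most of the body's supply, and many members are known to be made mainly near the central vein of the lobule. Subsets are induced through the nuclear receptors CAR, PXR and PPARA and through the aryl hydrocarbon receptor. DDC, a diet additive that injures bile ducts, is known to destroy P450 haem and to block haem synthesis.

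The study asked how hepatocytes change identity in liver regeneration and in tumour formation. It made 2 10x 3′ libraries of liver cells freed by perfusion from C57BL/6J;129S6/SvEvTac mice. The DDC and cMet library pooled Sox9-CreERT2:Rosa26-mTmG mice at 5 months of DDC with cMet, given by hydrodynamic tail vein injection (HTVi), with WT mice on normal diet at day 0. The DDC library pooled Sox9-EGFP mice after 2 weeks of DDC, in which EGFP reports Sox9, a gene of progenitor-like liver cells, with WT mice on normal diet at day 0. Each time point held 2 mice, and cell barcodes do not say which mouse or time a cell came from. Differences between the libraries therefore join model, duration, genotype and the share of untreated cells, which cannot be told apart. With 1 library per group there is no replicate spread and no test, and the 95% intervals given cover counting error only.

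Barcodes entered when they had 500 genes and 2000 UMIs or more, with no more than 30% of UMIs mitochondrial. These were 8099 of 18316 barcodes in the DDC and cMet library and 2903 of 8694 in the DDC library. Their median depths were 13215 UMIs in the DDC and cMet library and 29588 UMIs in the DDC library, and the libraries shared 4 kept barcodes. Hepatocytes were taken as Alb-high cells, with at least 50 Alb UMIs per 10,000 and fewer than 20 per 10,000 over markers of other liver cells; Alb encodes albumin. There were 5159 of them in the DDC and cMet library and 1935 in the DDC library. Non-epithelial cells (markers of other liver cells at 20 per 10,000 or more, Alb below 50) numbered 1711 in the DDC and cMet library and 587 in the DDC library, and served to measure free RNA. Cells with both marker sets, 1138 in the DDC and cMet library and 224 in the DDC library, were set apart as possible doublets. In Alb-high cells Y-linked genes gave 17160 UMIs against 16 of Xist in the DDC and cMet library, and 10252 against 15 in the DDC library. No Alb-high cell had Xist without a Y-linked UMI.

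Hepatocytes carried P450 transcripts at a higher level in the DDC and cMet library. Summed over the 81 members, the level was 87.3 UMIs per 10,000 in Alb-high cells of the DDC and cMet library and 58.0 per 10,000 in those of the DDC library. The log2 ratio was 0.59 (0.58 to 0.59). Per cell, the 10th percentile, median and 90th percentile were 51.3, 87.1 and 135 per 10,000 in the DDC and cMet library, against 19.1, 51.7 and 130 per 10,000 in the DDC library. The DDC cells thus reached nearly as high but extended much lower. Cells differed in depth: Alb-high cells with 2000 to under 5000, 5000 to under 20000 and 20000 or more UMIs stood at 98.6, 96.8 and 85.9 per 10,000 in the DDC and cMet library (1587, 938 and 2634 cells), against 75.1, 89.3 and 56.0 in the DDC library (226, 322 and 1387 cells). The part of depth in the difference was not tested. UMIs tag 3′ ends, so levels were compared between genes without scaling for length.

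A few subfamilies made up most of the total. In Alb-high cells, Cyp2a, Cyp3a, Cyp2c and Cyp2d held 25.5%, 21.5%, 16.5% and 13.5% of P450 UMIs in the DDC and cMet library. In the DDC library Cyp2c held 23.3%, Cyp2a 21.4%, Cyp3a 20.5% and Cyp2d 16.5%. The 31 members at 0.2 UMIs per 10,000 or more in either library are shown in the plot of member levels. When every cell was thinned to 2000 UMIs, the median Alb-high cell held UMIs of 9 members in the DDC and cMet library and 7 in the DDC library, against 1 member in non-epithelial cells of either library.

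**Figure D1:**
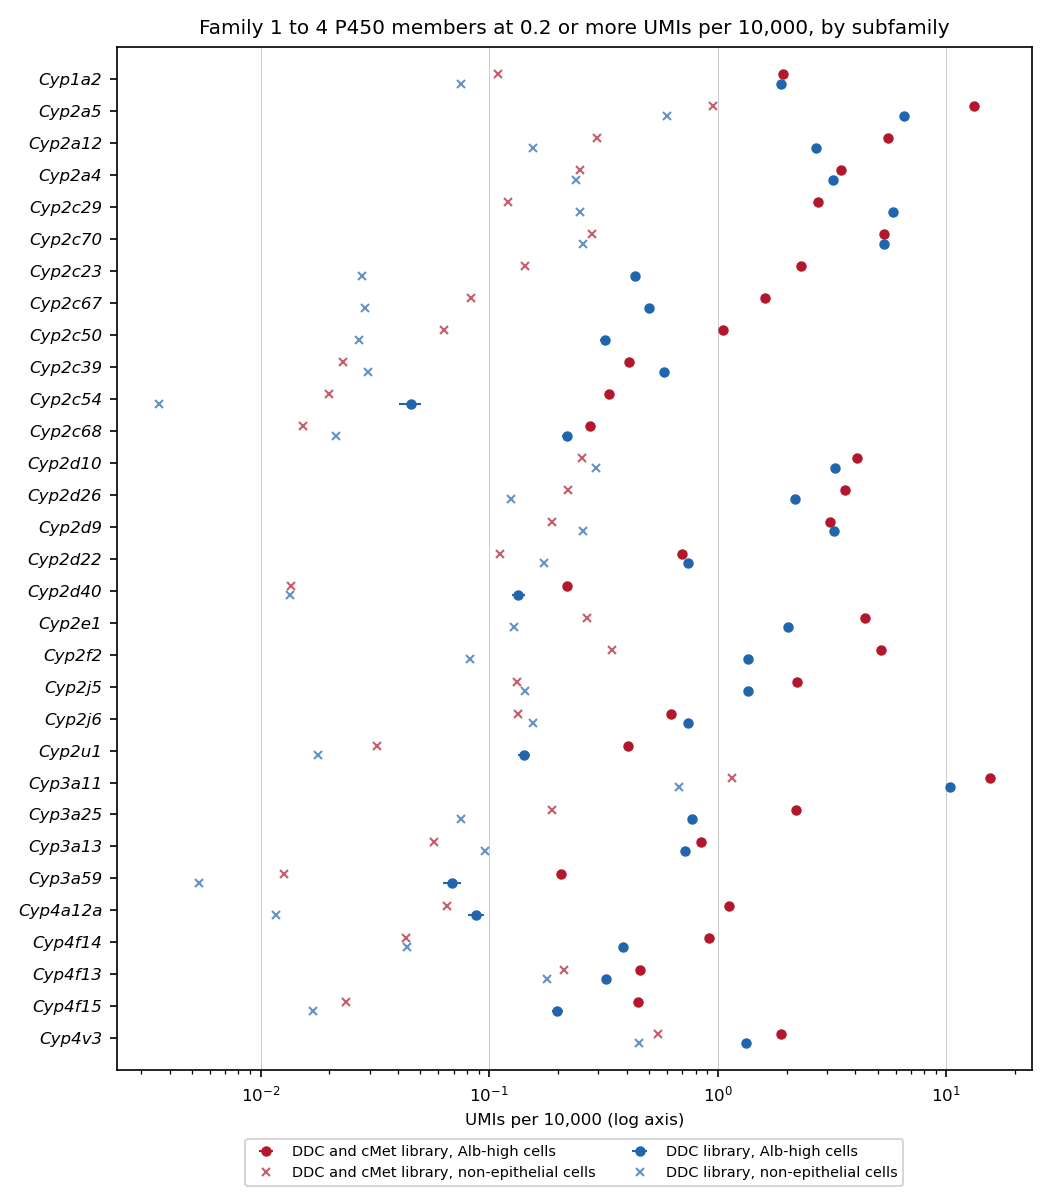
UMIs per 10,000 (log axis) of the 31 members at 0.2 or more, grouped by subfamily. Filled points are Alb-high cells with 95% counting intervals and crosses are non-epithelial cells, red for the DDC and cMet library and blue for the DDC library; Cyp3a11 and Cyp2a5 stand highest, and Cyp4a12a, Cyp2c54 and Cyp2c23 lie furthest apart between the libraries.

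Cyp3a11, the main drug-oxidising enzyme of mouse liver and a classic PXR target, was the most abundant member in both libraries. It reached 15.5 UMIs per 10,000 (15.5 to 15.6) in Alb-high cells of the DDC and cMet library and 10.3 (10.3 to 10.4) in those of the DDC library. Of its relatives, Cyp3a25 stood at 2.19 UMIs per 10,000 in the DDC and cMet library and 0.774 in the DDC library. Cyp3a13 stood at 0.844 per 10,000 in the DDC and cMet library and 0.721 in the DDC library. The female-biased Cyp3a41a, Cyp3a41b, Cyp3a16 and Cyp3a44 were close to nothing, with at most 21 UMIs in any library, in cells whose sex-linked transcripts were almost all male. Not all members listed as female-biased were so low. In Alb-high cells of the DDC and cMet library and of the DDC library, Cyp2a4 had 44125 and 22453 UMIs, and Cyp2b10 had 966 and 1190.

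Cyp2a5, which hydroxylates coumarin and nicotine, was the second member by level, with 13.2 UMIs per 10,000 in the DDC and cMet library and 6.53 in the DDC library. Cyp2a12, a steroid hydroxylase, reached 5.53 per 10,000 in the DDC and cMet library and 2.69 in the DDC library. Cyp2a4, a testosterone hydroxylase listed as female-biased, differed far less, at 3.45 per 10,000 in the DDC and cMet library and 3.18 in the DDC library. Cyp2a4 and Cyp2a5 are near copies: 44.3% of the 50-base words in the last 500 bases of a Cyp2a4 transcript, and 79.4% of those of a Cyp2a5 transcript, occur in another gene. The authors' counting could split or lose reads of such pairs, so single values within them are uncertain.

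Among the 15 Cyp2c members, Cyp2c29, a retinoid and fatty acid oxidase induced through CAR, stood at 2.73 UMIs per 10,000 in the DDC and cMet library and 5.86 in the DDC library. Cyp2c70, which makes the muricholic bile acids of mice, was the same in both, at 5.36 per 10,000 in the DDC and cMet library and 5.35 in the DDC library. Cyp2c23, an arachidonic acid epoxygenase, stood at 2.30 per 10,000 in the DDC and cMet library and 0.432 in the DDC library. The 3 thus stood lower, level and higher in the DDC and cMet library. Cyp2c29 and Cyp2c70 lie in a cluster of 14 Cyp2c genes on chromosome 19, and Cyp2c23 lies outside it. Cyp2c67 and Cyp2c68 share 51.2% of their end words with other members and are less sure one by one.

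The abundant Cyp2d members differed by less than 2-fold. Cyp2d10 stood at 4.05 UMIs per 10,000 in the DDC and cMet library and 3.26 in the DDC library, and Cyp2d26 at 3.61 and 2.18 per 10,000. Cyp2d9, a male-biased steroid hydroxylase, stood at 3.10 per 10,000 in the DDC and cMet library and 3.22 in the DDC library. Of the end words of Cyp2d10 63.8%, and of those of Cyp2d9 39.7%, occur in other genes, so both are less sure one by one. Cyp2e1, the ethanol and paracetamol oxidase, stood at 4.41 per 10,000 in the DDC and cMet library and 2.03 in the DDC library. Cyp2f2, which activates naphthalene, stood at 5.17 per 10,000 in the DDC and cMet library and 1.36 in the DDC library. Cyp1a2, the caffeine oxidase induced through the aryl hydrocarbon receptor, was level, at 1.93 (1.90 to 1.95) per 10,000 in the DDC and cMet library and 1.90 (1.87 to 1.93) in the DDC library. Its inducible partner Cyp1a1 was nearly silent in both, at 0.00329 per 10,000 in the DDC and cMet library and 0.00566 in the DDC library.

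The fatty acid hydroxylases and epoxygenases were less abundant. Cyp2j5, an epoxygenase of arachidonic acid, stood at 2.23 UMIs per 10,000 in the DDC and cMet library and 1.36 in the DDC library, and its relative Cyp2j6 at 0.626 and 0.743 per 10,000. Cyp4v3, a fatty acid omega-hydroxylase, stood at 1.88 per 10,000 in the DDC and cMet library and 1.33 in the DDC library. Cyp4f14, which inactivates leukotriene B4, stood at 0.918 per 10,000 in the DDC and cMet library and 0.383 in the DDC library. Cyp4f13 and Cyp4f15 were less abundant, at 0.457 and 0.448 per 10,000 in the DDC and cMet library, against 0.325 and 0.199 in the DDC library. Cyp2u1 stood at 0.407 per 10,000 in the DDC and cMet library and 0.142 in the DDC library, and Cyp2r1, a vitamin D 25-hydroxylase, at 0.104 and 0.0855 per 10,000. The Cyp2g, Cyp2s, Cyp2t, Cyp2w and Cyp4x members stayed below 0.2 per 10,000 in both libraries, with Cyp2g1 the highest of them at 0.0261 in the DDC and cMet library and 0.00892 in the DDC library.

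Free RNA set a floor under these levels. Of 52 members tested in the DDC and cMet library, 46 were at least 2-fold higher in Alb-high than in non-epithelial cells, against 18.2% of all genes, and 5 were lower, against 40.8% of all genes. Of 47 in the DDC library, 44 were higher, against 18.0% of all genes, and 1 was lower, against 29.7%. Alb in non-epithelial cells was 5.18% of its Alb-high level in the DDC and cMet library and 4.73% in the DDC library, and summed P450 there was 7.47 UMIs per 10,000 in the DDC and cMet library and 5.51 in the DDC library. Of the members with at least 50 UMIs over both cell sets, 38 of 52 in the DDC and cMet library and 26 of 47 in the DDC library had a non-epithelial share within 2-fold of that of Alb. Their share there was thus close to that of Alb. Alb also set both cell sets apart, at 50 per 10,000, which by itself keeps its non-epithelial share low. The counts within and above 2-fold therefore depend on that choice. A share more than 2-fold above that of Alb was seen for 11 members in the DDC and cMet library and 19 in the DDC library.

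Cyp4b1 was the clearest member of other cells. In Alb-high cells it was at 0.0110 per 10,000 in the DDC and cMet library and 0.00665 in the DDC library. It stood at 3.29 UMIs per 10,000 in endothelial-like cells from the DDC and cMet library (898 UMIs in 264 cells) and 3.62 in those of the DDC library (185 UMIs in 65 cells), with 1.63 and 1.32 in stellate- or fibroblast-like cells. Cyp1b1, which oxidises oestrogens and aromatic hydrocarbons, was at 0.225 per 10,000 in stellate- or fibroblast-like cells and 0.209 in endothelial-like cells, both in the DDC and cMet library, with 5 UMIs in all Alb-high cells there. In the DDC library it had 5 UMIs in stellate- or fibroblast-like cells, a level of 0.0997, and 0 in endothelial-like cells. Cyp4f18, known from neutrophils and other white blood cells, had 0 UMIs in Alb-high cells of the DDC and cMet library and 3 in those of the DDC library. Among the classes with at least 20 cells it was highest in other leukocytes, at 0.175 per 10,000 in the DDC and cMet library and 0.266 in the DDC library, on 11 and 10 UMIs; neutrophil-like cells (7 and 2 cells) and T- or NK-like cells (11 and 19 cells) were too few to rank. Cyp4f16 and Cyp4v3 were shared between hepatocytes and macrophage-like cells. Cyp4f16 stood at 0.0562 per 10,000 in Alb-high and 0.194 in macrophage-like cells (DDC and cMet library), and at 0.119 and 0.192 in those of the DDC library. Of its end words 60.1% occur in Cyp4f17 or Cyp4f37, so its single values are uncertain.

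**Figure D2:**
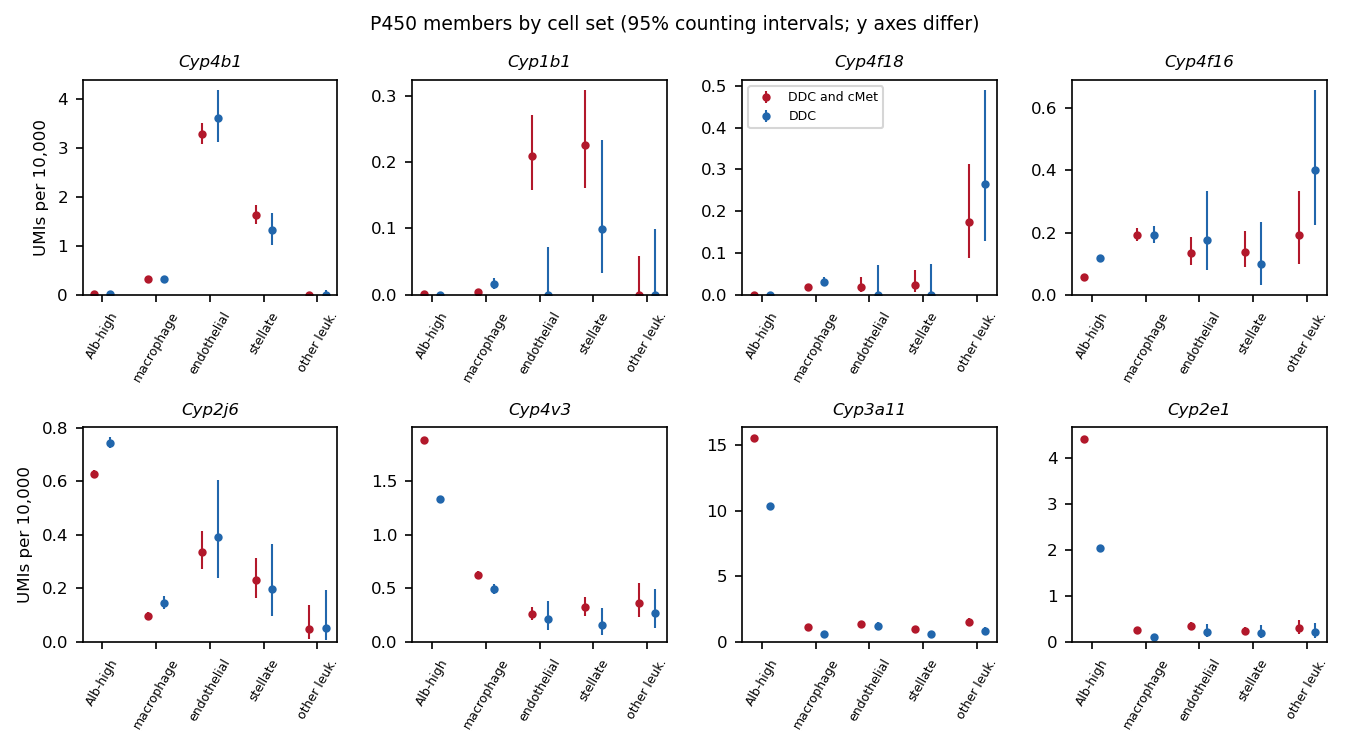
UMIs per 10,000 (linear axes that differ between panels) of 8 members in Alb-high cells and in macrophage-, endothelial-, stellate-like and other leukocyte cells; red is the DDC and cMet library, blue the DDC library, bars are 95% counting intervals. Cyp4b1 peaks in endothelial-like cells and is near 0 in Alb-high cells, whereas Cyp3a11 and Cyp2e1 show the reverse.

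Between the libraries, more members stood higher than lower in the DDC and cMet library. Of 51 members with at least 50 UMIs over both sides, 20 were at least 2-fold higher in Alb-high cells of the DDC and cMet library, against 5.82% of all genes so tested, and 5 were at least 2-fold lower, against 12.8% of all genes. The median log2 ratio of the 51 was 0.59, and that of all genes −0.29. Higher members came from Cyp2a (3 of 4), Cyp2c (5 of 12), Cyp3a (2 of 4), Cyp4a (2 of 6) and Cyp4f (2 of 5), among others. None of the 3 Cyp2j members tested, and 1 of the 6 Cyp2d members, passed 2-fold in either direction.

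Among members with at least 50 UMIs and counted in both libraries, the highest and the lowest ratio lay in the Cyp4a cluster, 11 members between positions 115106323 and 115647723 of chromosome 4 (GRCm38) that include Cyp4x1 and Cyp4b1. Cyp4a12a, the main arachidonic acid hydroxylase of male mice, stood at 1.12 UMIs per 10,000 in the DDC and cMet library and 0.0875 in the DDC library, a log2 ratio of 3.67 (3.56 to 3.79). Its copy Cyp4a12b stood at 0.103 per 10,000 in the DDC and cMet library and 0.0168 in the DDC library, a ratio of 2.61, with 37.0% of end words shared between them. Cyp4a14 and Cyp4a31, PPARA targets of the same cluster, were lower. Cyp4a14 stood at 0.0349 per 10,000 in the DDC and cMet library and 0.111 in the DDC library, a log2 ratio of −1.67 (−1.84 to −1.50), and Cyp4a31 had a ratio of −2.76. Cyp4a10, at 0.0870 per 10,000 in the DDC and cMet library and 0.130 in the DDC library, had a ratio of −0.58 and was not 2-fold lower. Few cells carried some of these transcripts: 29.4% of the Cyp4a12a UMIs of the DDC library and 34.8% of the Cyp4a14 UMIs of the DDC and cMet library came from the 10 cells with most of each.

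Cyp2b9, a female-biased member, was counted 157 times in 105 Alb-high cells of the DDC and cMet library and never in the DDC library. Set against a floor of 3 UMIs for the DDC library, its log2 ratio was at least 4.85. The other widest positive ratios were 2.89 for Cyp2c54, a linoleate and arachidonate epoxygenase, and 2.41 for Cyp2c23. The other lowest were −1.16 for Cyp2b10, the classic CAR target, −1.10 for Cyp2c29 and −1.08 for Cyp4f16. Cyp2b10 stood at 0.0756 per 10,000 in the DDC and cMet library and 0.168 in the DDC library. By inducer, 2 of the 3 CAR-induced and 2 of the 4 PPARA-induced members were at least 2-fold lower, 1 of the 3 PXR-induced members was at least 2-fold higher, and neither of the 2 AHR-induced members tested passed 2-fold. Of the 4 male-biased members, 3 were at least 2-fold higher, and of the 4 female-biased members tested 1 was higher and 1 lower. Beside these counts, 20 of all 51 members were higher and 5 lower, and 5.82% and 12.8% of all genes. Cyp2b10 is on both the CAR-induced and the female-biased list and was lower in each. These lists were drawn up from general knowledge and with earlier results of these data known.

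The cells carrying EGFP in the DDC library bore on this comparison. With only the 780 cells with an EGFP UMI on the DDC side, the summed log2 ratio was 1.09, with 24 members at least 2-fold higher, against 7.09% of all genes, and 2 lower, against 14.3%. With only the 1155 cells without EGFP it was 0.19, with 15 members higher, against 5.63% of all genes, and 7 lower, against 9.49%. Against cells without EGFP, Cyp4a12a kept a ratio of 2.87 and Cyp2f2 one of 1.71. Cyp2e1 stood at 0.35 instead of 1.12, Cyp3a11 at −0.09 instead of 0.59 and Cyp1a2 at −0.58 instead of 0.02. Cyp2c29 stood at 0.16 against cells with EGFP and at −1.80 against cells without.

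**Figure D3:**
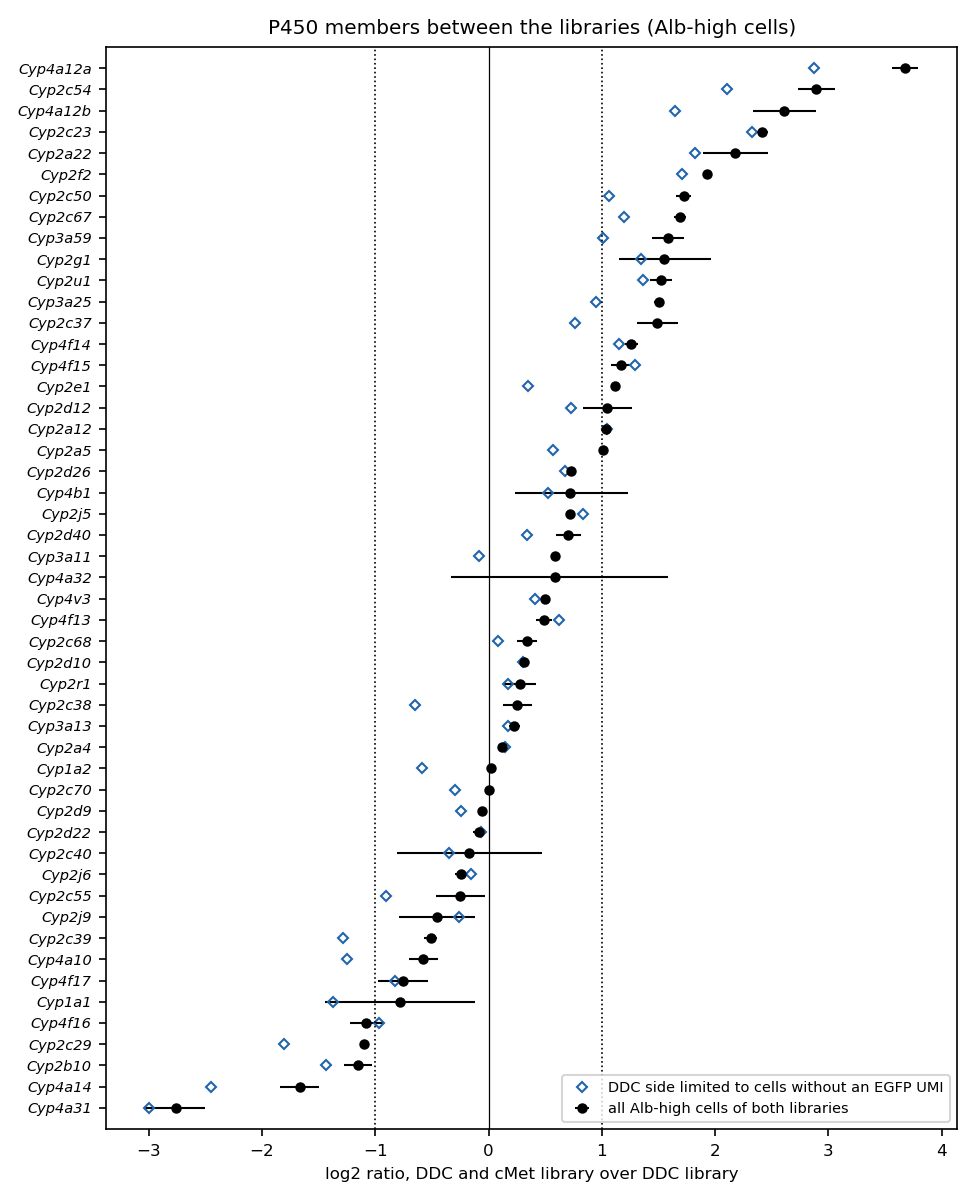
Log2 ratio of each of 50 members, DDC and cMet library over DDC library, in Alb-high cells (black, with 95% counting intervals; dotted lines mark 2-fold). Open diamonds limit the DDC side to cells without EGFP; Cyp2e1 and Cyp3a11 then lie near 0, while Cyp4a12a and Cyp2c23 stay more than 2-fold higher and Cyp4a31 stays more than 2-fold lower. Cyp2b9 has no UMI in the DDC library and is not drawn.

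Other genes of P450 function were followed as background. Of 8 partner genes, 1 was at least 2-fold higher, against 5.82% of all genes, and 0 lower, against 12.8%. It was Por, which encodes P450 reductase, with 2.27 UMIs per 10,000 in the DDC and cMet library and 0.893 in the DDC library. Of 9 genes of haem supply, 1 was higher and 0 lower, beside the same shares. It was Alas1, the first enzyme of haem synthesis, at 5.51 per 10,000 in the DDC and cMet library and 1.61 in the DDC library. Of 19 regulators tested, 7 were at least 2-fold higher, against 5.82% of all genes, and 1 lower, against 12.8%. The widest was Dbp, a clock-driven transcription factor, at 1.72 per 10,000 in the DDC and cMet library and 0.0595 in the DDC library; its part in the P450 levels was not tested. P450 families 5 and up, mainly sterol and bile acid enzymes, had a summed log2 ratio of 0.50, with Cyp8b1, the cholic acid enzyme, widest at 2.84.

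Most members were lower in cells with more EGFP. Epithelial-side cells of the DDC library, meaning all kept cells below 20 per 10,000 for markers of other cells, were binned by EGFP. The bins held 1191 cells with none, 477 with under 1 EGFP UMI per 10,000, 232 with 1 to under 3, and 192 with 3 or more. Over these bins summed P450 was 73.8, 44.9, 35.3 and 19.0 UMIs per 10,000. The log2 ratio of the top bin over the cells without EGFP was −1.96 (−1.98 to −1.93). Sox9 stood at 3.18 per 10,000 in the top bin and 0.830 without EGFP, and Spp1, a duct and progenitor marker, at 181 and 18.3. The duct keratin Krt19 was at 0.0481 in the top bin and 0.000562 without EGFP. Alb was 104 per 10,000 in the top bin and 269 without EGFP, a log2 ratio of −1.37; its part in the P450 levels there was not tested. Cells without EGFP join untreated WT cells with DDC-fed cells in which none was counted, which cannot be told apart. The bins also differed in depth, with medians of 28493, 47611, 47048.5 and 49563.5 UMIs from none to most EGFP. In cells with at least 10000 UMIs, summed P450 over the bins was 73.5, 44.9, 34.8 and 18.8 per 10,000. Depth still differed between those bins, and its part was not tested. Of non-epithelial cells, 35 of 587 (5.96%, exact interval 4.19 to 8.20%) had an EGFP UMI, the level that free RNA and other cells gave.

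Of 45 members tested, 29 were at least 2-fold lower in the top bin, against 6.08% of all genes, and 0 were at least 2-fold higher, against 12.0% of all genes. The lower members included 24 at least 4-fold lower, against 2.00% of all genes, and 17 at least 8-fold lower, against 0.720%. The median log2 ratio of the 45 was −2.53, and that of all genes 0.28. Along the bins, 27 members were lower at every step and 5 higher at every step. The share of all genes that did so is not given here. Limiting both sides to Alb-high cells left 26 members at least 2-fold lower and 0 higher, with the median of all genes at 0.24. Of the listed groups, all 3 CAR-induced members and 3 of the 4 male-biased members were at least 2-fold lower, beside the 29 of 45 over all members and the 6.08% of all genes.

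Among the abundant members, the drug-oxidising Cyp3a11, Cyp2c29 and Cyp2e1 stood furthest apart. Over the 4 bins from none to most EGFP, Cyp3a11 stood at 15.8, 5.42, 3.47 and 0.738 UMIs per 10,000. Cyp2c29 stood at 9.14, 2.98, 1.65 and 0.305 per 10,000, and Cyp2e1 at 3.32, 0.858, 0.481 and 0.0963. Each was more than 2-fold lower already in the bin under 1 EGFP UMI per 10,000. Log2 ratios of the top bin over cells without EGFP were −4.42 (−4.54 to −4.31) for Cyp3a11, −4.91 for Cyp2c29, −5.11 (−5.43 to −4.80) for Cyp2e1 and −4.15 for Cyp1a2. The lowest ratio was −6.03 (−9.08 to −4.17) for Cyp4a12a, which rested on 2 UMIs in the top bin, and next came −5.93 for Cyp2c37 on 1 UMI, −5.42 for Cyp2c38 on 4 and −5.35 for Cyp4a14 on 4. Of 11 Cyp2c members, 10 were at least 2-fold lower, and Cyp2c23, at −0.78, was the exception.

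Free RNA limits how low such a level can be read. In the top bin, 6 of the 29 lower members stood at or below their level in non-epithelial cells and 10 more within 2-fold above it. Cyp2e1, for example, was at 0.0963 per 10,000 in the top bin and 0.128 in non-epithelial cells, and Cyp3a11 at 0.738 and 0.675. A level at or near that of non-epithelial cells cannot be told apart from free RNA. Of the 16 members not 2-fold apart, 15 stood more than 2-fold above the non-epithelial cells in the top bin. The remaining member was Cyp4f16, at 0.204 in the top bin and 0.192 in non-epithelial cells, to which the same limit applies.

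Members that were not 2-fold lower with EGFP included 2 whole subfamilies. All 3 Cyp2j and all 5 Cyp4f members tested, enzymes of arachidonic acid and other fatty acids, had positive ratios, none of them 2-fold. Over the bins Cyp2j6 stood at 0.703, 0.743, 0.903 and 0.939 UMIs per 10,000, a log2 ratio of 0.42 (0.30 to 0.53), and Cyp4f16 at 0.115, 0.119, 0.131 and 0.204, a ratio of 0.83 (0.57 to 1.08). The highest ratio, 0.84 (0.11 to 1.53), belonged to Cyp2j9, on 26 UMIs in the top bin. Cyp2j5 at 0.30 and Cyp4f13 at 0.47 completed the 5 highest. The ratios of the 8 lay between 0.09 and 0.84, on either side of the median of all genes, 0.28. Cyp2d10, at 3.20, 3.22, 3.11 and 2.75 per 10,000, and Cyp2d22 and Cyp3a13 also stayed within 1.5-fold. Cyp2d10 was the most abundant member of the top bin. Its relatives Cyp2d9, Cyp2d12, Cyp2d26 and Cyp2d40 were at least 2-fold lower, with ratios between −3.41 and −1.30. Cyp2d10 shares 63.8% of its end words with other genes, Cyp2d9, Cyp2d12 and Cyp2d40 among them, so this contrast is uncertain.

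**Figure D4:**
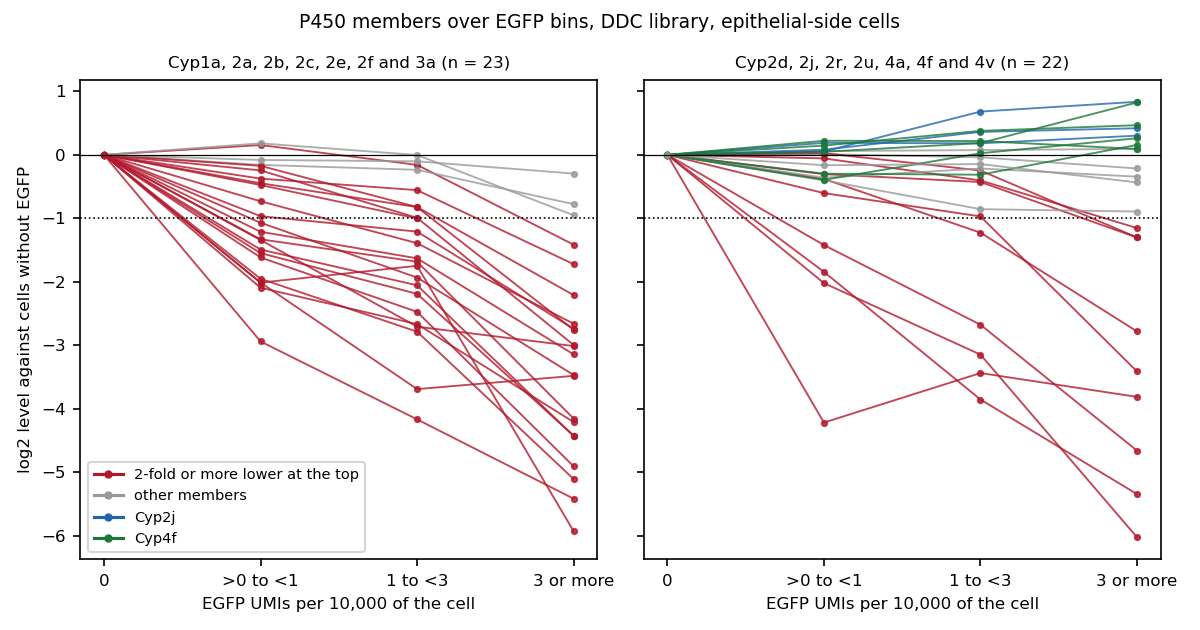
Log2 level of 45 members in epithelial-side cells of the DDC library against cells without EGFP, over 4 bins of EGFP UMIs per 10,000. Red lines end at least 2-fold lower (29 members), grey lines do not; blue Cyp2j and green Cyp4f lines end at or above 0, while most Cyp2c, Cyp3a and Cyp4a lines end far below. A point with 0 UMIs is not drawn.

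Sequences upstream of the start were compared for members that were lower with EGFP and members that were not. RefSeq promoters (GRCm38.p6) were at hand for 66 of the 81 members, and for 18 of the 24 members at least 4-fold lower and 11 of the 16 not 2-fold apart. The motif TATAAA was sought on the gene's own strand, from 40 to 16 bases before the start. It was held by 7 of the 18 (38.9%) and 1 of the 11 (9.09%). Of all 66 members 10 held it (15.2%), against 2.22% of all 27025 promoters. CpG pairs in the 250 bases before the start had a median of 1 in the 18, 3 in the 11 and 6 in all promoters. On either strand of the same 250 bases, members held GTTAAT in 13.6% (6.52% of all promoters), TTGCNNAA in 21.2% (9.55%), the direct repeat bound by HNF4A in 4.55% (0.333%), CTTTGAA in 6.06% (4.64%) and GCGTG in 18.2% (28.2%). The 3 members with the HNF4A repeat were all Cyp2d members, namely Cyp2d9, Cyp2d10 and Cyp2d40. All 5 Cyp2b members were among the 14 with TTGCNNAA. Promoters of such close relatives were each counted, so these shares do not rest on independent promoters. A match is only a match of letters. The last 100 bases before the earliest annotated start are shown for 4 members at least 4-fold lower with EGFP (log2 ratios of −5.42, −3.01, −2.53 and −5.93 in the order given; that of Cyp2a22, with no UMI in the top bin, is an upper bound set at 3 UMIs) and 3 that were not, with TATAAA in capitals. Cyp2c37, the last of the 4, holds no such match.
Cyp2c38, chr19:39463076-39463175, minus strand: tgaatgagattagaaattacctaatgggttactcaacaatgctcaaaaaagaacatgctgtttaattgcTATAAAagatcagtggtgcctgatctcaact
Cyp2c55, chr19:39006919-39007018, plus strand: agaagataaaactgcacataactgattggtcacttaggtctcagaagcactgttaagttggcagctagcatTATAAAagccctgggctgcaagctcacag
Cyp2a22, chr7:26939387-26939486, minus strand: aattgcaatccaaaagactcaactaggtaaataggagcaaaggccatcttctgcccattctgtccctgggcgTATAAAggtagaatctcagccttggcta
Cyp2c37, chr19:39992324-39992423, plus strand: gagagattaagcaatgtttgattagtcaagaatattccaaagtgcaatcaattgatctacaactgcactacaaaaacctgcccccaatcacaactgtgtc
Cyp3a13, chr5:137921620-137921719, minus strand: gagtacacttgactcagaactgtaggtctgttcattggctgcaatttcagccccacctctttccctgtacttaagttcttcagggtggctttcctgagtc
Cyp2j6, chr4:96553662-96553761, minus strand: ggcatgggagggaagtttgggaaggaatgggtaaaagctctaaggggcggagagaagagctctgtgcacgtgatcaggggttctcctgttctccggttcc
Cyp4f16, chr17:32536457-32536556, plus strand: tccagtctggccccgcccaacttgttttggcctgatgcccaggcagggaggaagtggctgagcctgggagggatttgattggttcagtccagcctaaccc

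Few partners and regulators stood 2-fold apart along EGFP. These lists are short, and their counts are given as a description. Of 8 partner genes 1 was at least 2-fold lower, against 6.08% of all genes. It was Pgrmc1, a haem-binding partner, at 3.89 UMIs per 10,000 in the top bin and 8.19 without EGFP. Of 9 genes of haem supply 1 was lower, beside the same share, namely Alas1, at 0.703 and 1.78. Of 18 regulators, 2 were at least 2-fold higher, against 12.0% of all genes, and 2 lower, against 6.08%. The widest was Nr1i3, which encodes CAR, at 0.0437 per 10,000 in the top bin and 0.468 without EGFP, a log2 ratio of −3.42. Among P450 families 5 and up, Cyp7a1, which starts bile acid synthesis, was lowest, at −5.13.

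Zonation was read from 14 pericentral and 15 periportal marker genes that are not P450 members. Alb-high cells of each library were ranked by the difference of the markers' mean log2 levels and split into 5 bins of equal size from most periportal to most pericentral. The cells were ranked on these markers, so the direction of the markers over the bins follows from the ranking. Summed P450 over the bins was 85.2, 82.5, 81.8, 84.8 and 104 UMIs per 10,000 in the DDC and cMet library, and 57.3, 49.1, 48.3, 52.6 and 83.1 in the DDC library. The most pericentral bin was highest in each. The most pericentral over most periportal log2 ratio was 0.28 in the DDC and cMet library, below the median of all genes, 0.36, and 0.54 in the DDC library, above the median of all genes, 0.19. The median mitochondrial share was 8.25% in the most pericentral and 12.8% in the most periportal bin of the DDC and cMet library, and 6.04% and 6.90% in those of the DDC library; its part in the ratios was not tested.

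The median member lay at −0.26 in the DDC and cMet library and 0.10 in the DDC library. In the DDC and cMet library, 14 of 47 members tested were at least 2-fold higher in the most pericentral bin, against 15.2% of all genes, and 11 were at least 2-fold lower, against 2.76% of all genes. In the DDC library, 13 of 43 were at least 2-fold higher, against 5.60% of all genes, and 5 were lower, against 1.17%. Of 43 members tested in both, 10 were pericentral in both, namely Cyp1a2, Cyp2a5, Cyp2e1 and 7 Cyp2c members (Cyp2c29, Cyp2c37, Cyp2c38, Cyp2c39, Cyp2c50, Cyp2c54 and Cyp2c55). Cyp2f2 and Cyp4f15 were periportal in both, and 16 were called in neither. Their values differed in part when cells were set apart by Glul alone. This left 20 pericentral cells in the DDC and cMet library and 23 in the DDC library. The reference cells were 3413 and 818, more than the 1032 and 387 of the most periportal bins, so these ratios are not like for like. Cyp2f2 then had a log2 ratio of −0.09 in the DDC and cMet library and −3.63 in the DDC library. Cyp4f15 had 0.33 in the DDC library, with an interval (−0.43 to 1.01) that gave no direction. Among DDC cells without EGFP, Cyp4f15 was at −0.53 and not 2-fold lower.

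Cyp2e1 showed the steepest course of the abundant members. From most periportal to most pericentral it stood at 0.636, 1.92, 2.99, 4.59 and 13.0 UMIs per 10,000 in the DDC and cMet library, a log2 ratio of 4.36, and at 0.686, 0.740, 0.960, 1.42 and 6.42 in the DDC library, a ratio of 3.23. Cyp2c29 stood at 0.375, 1.39, 2.26, 3.09 and 7.17 per 10,000 in the DDC and cMet library, against 3.58, 3.34, 3.77, 5.73 and 13.0 in the DDC library, with ratios of 4.26 and 1.86. The libraries stood further apart in the most periportal than in the most pericentral bin. Cyp2c38 had the widest ratios, 4.67 in the DDC and cMet library and 4.77 in the DDC library, on 41 and 22 UMIs in the most periportal bins. Next to these in the DDC and cMet library came Cyp2c39, at 4.17, and Cyp2c55, at 3.91. In the DDC library Cyp2c39 had 2.58 and Cyp2c37 2.37.

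Cyp2f2 ran the opposite way. It stood at 13.8, 4.43, 3.21, 2.41 and 1.09 UMIs per 10,000 from most periportal to most pericentral in the DDC and cMet library and at 3.26, 1.43, 1.17, 0.647 and 0.250 in the DDC library, with log2 ratios of −3.66 and −3.70. The DDC library thus held less of it in every bin, at nearly the same ratio. Cyp2c70 was flat, with ratios of 0.05 in the DDC and cMet library and −0.20 in the DDC library. Cyp3a11 had ratios of 0.70 and 1.25. The other lowest ratios of the DDC library were −1.70 for Cyp2a12, −1.19 for Cyp2d26 and −1.15 for Cyp4f15; that of Cyp2d26 was −0.11 with Glul alone. Close copies differed along the lobule: Cyp2a5 had ratios of 1.92 in the DDC and cMet library and 1.08 in the DDC library, while Cyp2a4 had −0.29 and −1.23.

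On the marker ranking, Cyp4a10 and Cyp4a14 pointed in opposite directions in the libraries. Cyp4a14 stood at 0.109, 0.00810, 0.00605, 0.0396 and 0.00850 UMIs per 10,000 over the bins of the DDC and cMet library, against 0.0340, 0.0208, 0.0498, 0.111 and 0.343 in the DDC library. Its log2 ratios were −3.68 (−4.41 to −3.02) and 3.34 (2.91 to 3.79). Cyp4a10 had −3.16 (interval −3.52 to −2.82) in the DDC and cMet library and 1.48 (1.20 to 1.76) in the DDC library. Setting cells apart by Glul alone could not decide the direction in the DDC and cMet library, because too few UMIs were left. Its reference there was 3413 cells, not the 1032 of the most periportal bin. The opposite directions therefore rest on the marker ranking. Cyp4a10 then had 2 UMIs in the 20 pericentral cells of the DDC and cMet library, a log2 ratio of 0.23 (−2.83 to 2.09), against 3.22 in the DDC library. Cyp4a14 had 0 UMIs in those 20 cells, which limits its ratio to at most 1.91 and gives no direction, against 4.60 in the DDC library. In DDC cells with EGFP Cyp4a10 had 0.66. The male-biased Cyp4a12a was periportal in the DDC and cMet library, at −1.74, and below 2-fold in the DDC library, at −0.87. In the DDC and cMet library all 4 male-biased members were at least 2-fold lower in the most pericentral bin, against 2.76% of all genes, with a median of −1.93. In the DDC library 0 of the 4 were, with a median of −0.33. Among the lowest in the DDC and cMet library were also Cyp4a12b, at −2.78, and Cyp2b10, at −2.14; with Glul alone these were 1.63 on 8 UMIs and 0.67 on 3 UMIs in the pericentral cells.

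**Figure D5:**
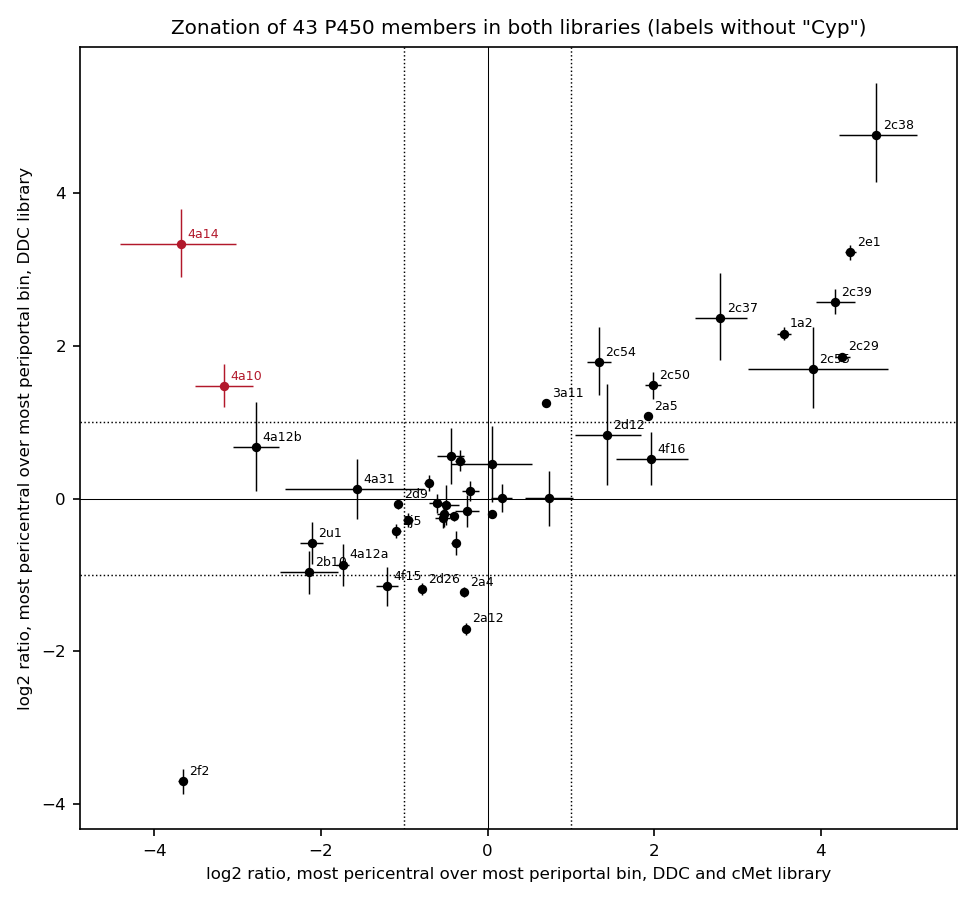
Log2 ratio of the most pericentral over the most periportal bin of Alb-high cells for 43 members, DDC and cMet library (x axis) against DDC library (y axis), with 95% counting intervals; dotted lines mark 2-fold. Most labelled Cyp2c members, Cyp2e1 and Cyp1a2 lie at the upper right and Cyp2f2 at the lower left, while Cyp4a10 and Cyp4a14 (red) lie at the upper left.

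The pericentral pattern of the DDC library was clearest in its cells without EGFP. Ranked among themselves, cells with EGFP gave 30.3 P450 UMIs per 10,000 in the most pericentral and 51.2 in the most periportal bin, a log2 ratio of −0.76, with 1 member pericentral, against 9.09% of all genes, and 10 periportal, against 3.49%. Cells without EGFP gave 121 in the most pericentral and 66.0 in the most periportal bin, a ratio of 0.87, with 14 members pericentral, against 2.69% of all genes, and 4 periportal, against 1.29%. Cyp2e1 was at 1.02 per 10,000 in the most pericentral and 0.654 in the most periportal bin of cells with EGFP, but at 10.7 and 0.813 in those without. With EGFP, the 1 pericentral member was Cyp4a14, at 4.56, and Cyp1a2 leaned the same way, at 0.98 (0.82 to 1.13). Cyp2c37, Cyp2c38, Cyp2c54 and Cyp2c55 had under 50 UMIs over both bins of those cells and were not called, so fewer members could be pericentral there. Cyp2f2 kept its periportal course in both, with ratios of −3.18 with EGFP and −4.59 without. The pericentral markers on which the cells were ranked had a median log2 ratio of 0.58 in cells with EGFP and 2.78 in cells without. Spp1 stood at 117 per 10,000 in their most pericentral bin and 34.5 in the most periportal, so that position and Sox9-reporter state cannot be told apart there.

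Members that were pericentral in the DDC and cMet library were mostly also lower with EGFP in the DDC library, which are different cells. Of the 13 tested in both, 12 were at least 4-fold lower in the top EGFP bin, against 24 of all 45 members and 2.00% of all genes, with a median log2 ratio of −4.15. Of the 11 periportal members 6 were, with a median of −2.76, and of the 21 called in neither direction 6 were, with a median of −0.95. Cyp4f16 was the pericentral member that was not lower, and with 60.1% of its end words in other genes its values are uncertain.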

How the data were processed

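The authors deposited counts of UMIs per gene and barcode. Per the file headers they come from Cell Ranger 5.0.1. The submitters' processing notes name the mm10 build, Cell Ranger 6.0.1 and Seurat 4.0.1, with no role given. Barcodes and gene names were used as the authors deposited them. The 10x 3′ chemistry reads transcript ends, so near-identical copies can lose or trade counts.

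Counts were summed over cells and divided by the summed total to give UMIs per 10,000. Ratios carry exact conditional binomial intervals and single levels exact Poisson intervals (95%); 2-fold was required, with at least 50 UMIs over both sides, and 3 UMIs stood for a count of 0. The ratio code was tested on simulated counts. No doublet caller was run. Cells within 2-fold of the Alb limit numbered 233 in the DDC and cMet library and 371 in the DDC library. Those within 2-fold of the limit for markers of other cells numbered 925 and 215. Genes described singly were the 3 most abundant of each subfamily and the 5 highest and 5 lowest ratios of each comparison, with further ones chosen after their values were seen. Members and lists were chosen with earlier results of these data known. Coordinates came from GENCODE vM21 (81 of 81 members matched by gene ID). Python 3.11.15, numpy 2.4.6, scipy 1.17.1 and pandas 2.3.3 were used.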

Additional observations from a re-analysis of the deposited data

Results flagged for a closer look

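The zonation of Cyp4a10 and Cyp4a14 differed in sign between the libraries on the marker ranking. The log2 ratio of the most pericentral over the most periportal bin was −3.16 in the DDC and cMet library and 1.48 in the DDC library for Cyp4a10, and −3.68 and 3.34 for Cyp4a14. With 1 library per group the difference was not tested. Setting cells apart by Glul alone, against 3413 reference cells in the DDC and cMet library, could not decide the direction there. Cyp4a10 was then at 0.23, on 2 UMIs in 20 pericentral cells, in the DDC and cMet library and at 3.22 in the DDC library. Cyp4a14 had 0 UMIs in those 20 cells, which allows at most 1.91 and gives no direction, against 4.60 in the DDC library. UMIs of Cyp4a14 were concentrated: 174 of 5159 Alb-high cells of the DDC and cMet library and 198 of 1935 of the DDC library held any.

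Barcodes that the filter on cells left out also carried P450 UMIs, at 47.1 per 10,000 in 10217 barcodes of the DDC and cMet library and 32.2 per 10,000 in 5791 barcodes of the DDC library, above the limits of 0.00129 and 0.00256 per 10,000 that a count of 0 allows.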

How the results depend on the processing

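No paired analysis was possible because each group is 1 library and the libraries share only a number.

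The summed log2 ratio between libraries (0.59) was 0.60 with at most 15% mitochondrial UMIs, 0.48 as a mean over cells, 0.65 without mitochondrial UMIs in the total, 0.47 and 0.66 with an Alb minimum of 100 and 25 per 10,000, 0.50 in cells thinned to 2000 UMIs (13 members higher), and 0.88 centred on the median gene (2 members lower).
Alternatives chosen after seeing the data gave 0.57 with both-marker cells kept, 1.09 with only DDC cells with EGFP (2 members lower; Cyp2c29 reversed to 0.16) and 0.19 with only those without.

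The summed EGFP ratio (−1.96) was −1.93 with at most 15% mitochondrial UMIs, −1.76 both as a mean over cells and in Alb-high cells only, −1.99 without mitochondrial UMIs, −1.71 against all cells under 1 EGFP UMI per 10,000, and −2.24 centred.

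The summed zonation ratio of the DDC and cMet library (0.28) was 0.27 with at least 10000 UMIs per cell, 0.24 with at most 15% mitochondrial UMIs, 0.21 both as a mean over cells and without mitochondrial UMIs, 0.20 between the ends of 3 bins (7 periportal), 0.34 with an Alb minimum of 100 and −0.080 centred.
With Glul alone, on 20 pericentral against 3413 reference cells, it was 0.81 (2 periportal). Cyp4a10 (0.23), Cyp4a12b (1.63) and Cyp2b10 (0.67) were then positive, on only 2, 8 and 3 UMIs in those 20 cells. Cyp4a14 had none there.
That of the DDC library (0.54) was 0.57, 0.59, 0.56 and 0.52 under the first 4 of these settings, 0.43 with 3 bins, 0.78 with an Alb minimum of 100 (2 periportal) and 0.35 centred.
With Glul alone, on 23 pericentral against 818 reference cells, it was 2.00 (24 pericentral), and Cyp4f15 was at 0.33, with an interval that gave no direction. It was −0.76 in cells with EGFP (1 pericentral, 10 periportal) and 0.87 in those without, again chosen after seeing the data.

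The summed ratio of Alb-high over non-epithelial cells (3.55 in the DDC and cMet library, 3.40 in the DDC library) was 3.64 and 3.47 with at least 10000 UMIs per cell, and in the DDC and cMet library 3.48 as a mean over cells and 3.63 without mitochondrial UMIs. The cause of these shifts was not tested. Depth limits members under 50 UMIs, which were not called.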
